A study of Mus musculus with 4 samples.

Results

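The genes described here are 52 mouse genes of DNA replication and mitosis, 25 replication genes and 27 mitosis genes, out of 18193 genes named on the arrays. They were listed by name from known function and found by the platform's gene symbol, and all 52 were measured. Each gene was read from its probe set (a group of short DNA probes for 1 transcript) with the highest mean, and 40 of the genes had further probe sets that served as a check.

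RNA from 4 mouse cell cultures was read on Affymetrix arrays, and each group has 1 array. The knockout array holds germline stem (GS) cells lacking Trp53, labelled ICR as well and kept in GS medium, for which StemPro-34 is the base. The ES array holds the embryonic stem cell line R1 and the mGS array multipotent germline stem cells, both grown in a standard ES cell medium. The GS array holds GS cells, which are spermatogonial stem cells kept in culture, in the same GS medium as the knockout. The labels give no age, no strain for the GS and mGS cells, no number of pooled cultures and nothing on feeder cells. Trp53 was itself not analysed here, so the knockout label was not checked at that gene. With 1 array per group no difference has a replicate check, so no p-value is given and differences are described by their size. How precise a value is cannot be had from so few arrays.

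A dividing cell copies its DNA once and then shares the copies between its daughters. In late G1 phase the proteins Cdc6 and Cdt1 load the ring-shaped Mcm helicase onto origins, and in S phase Cdc45 and the GINS proteins activate it while polymerases, the sliding clamp Pcna and the enzymes of deoxynucleotide synthesis do the copying. In G2 phase and mitosis the kinase Cdk1 with its cyclins, the Aurora and Polo-like kinases, spindle motors and the spindle checkpoint separate the chromosomes. Transcripts of the first set are known to peak around the G1/S transition under E2F transcription factors, and those of the second in G2 and mitosis under the B-Myb and FoxM1 factors, which act with the MuvB complex at the promoter element called CHR. Mouse GS cells, mGS cells and ES cells all divide in culture.

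Gene values below are quantile-normalized signals on a linear scale unless a log2 difference is named, and control values are medians of the signals as deposited. The floor was the array median, a signal of 82.7, and no replication or mitosis gene listed here was under it on any array. Germ cell markers were high on the 2 arrays labelled as GS cells and pluripotent cell markers on the other 2. The summed signal of 9 germ cell markers was 86760.3 on the knockout array, 1575 on the ES array, 3761 on the mGS array and 81614 on the GS array, and that of 9 pluripotent cell markers was 5749 on the knockout array, 86089 on the ES array, 99706 on the mGS array and 6980.2 on the GS array. The summed signal of 18 fibroblast markers was 7361 on the knockout array, 78424 on the ES array, 22829 on the mGS array and 4469 on the GS array, with 13, 17, 12 and 10 of the 18 over the floor on those arrays. Sertoli cell markers summed to between 493 and 2163 over 7 genes, and leukocyte markers to between 471 and 1159 over 6 genes. All 4 hybridisation controls were lower on the knockout array than on the other 3, and bioC differed most. BioB read 676 on the knockout array and between 1083 and 1213 on the others, bioC 602 and between 3066 and 3499, bioD 7526 and between 11862 and 12344, and cre 24622 and between 30058 and 33127. The poly-A control dap read 3055 and 2545 on the knockout and ES arrays, against 255 and 271 on the mGS and GS arrays. The ratio of 3′ to 5′ signal, a sign of RNA integrity, was 1.42 on the knockout array for Actb and between 1.31 and 1.51 on the others, and 0.662 on the knockout array for Gapdh and between 0.733 and 0.83 on the others.

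The knockout array stood apart from the other 3 for these genes, and the mitosis genes stood further apart than the replication genes. The median signal of the 27 mitosis genes was 935 on the knockout array, 3580 on the ES array, 4025 on the mGS array and 4012 on the GS array. For the 25 replication genes it was 1899 on the knockout array, 3605 on the ES array, 4112 on the mGS array and 5695 on the GS array. The knockout array was the lowest of the 4 for 42 of the 52 genes, which was true of 21.0% of the 12897 genes that exceeded the floor anywhere. It lay at least 2-fold under each of the other arrays for 25 of them, 17 mitosis and 8 replication genes, against 2.57% of all genes. By contrast, the ES, mGS and GS arrays lay within 2-fold of each other for 43 of the 52 genes, against 58.2% of all genes. A bulk RNA signal cannot tell fewer cells in a phase of the cycle from less RNA per cell.

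**Figure D1:**
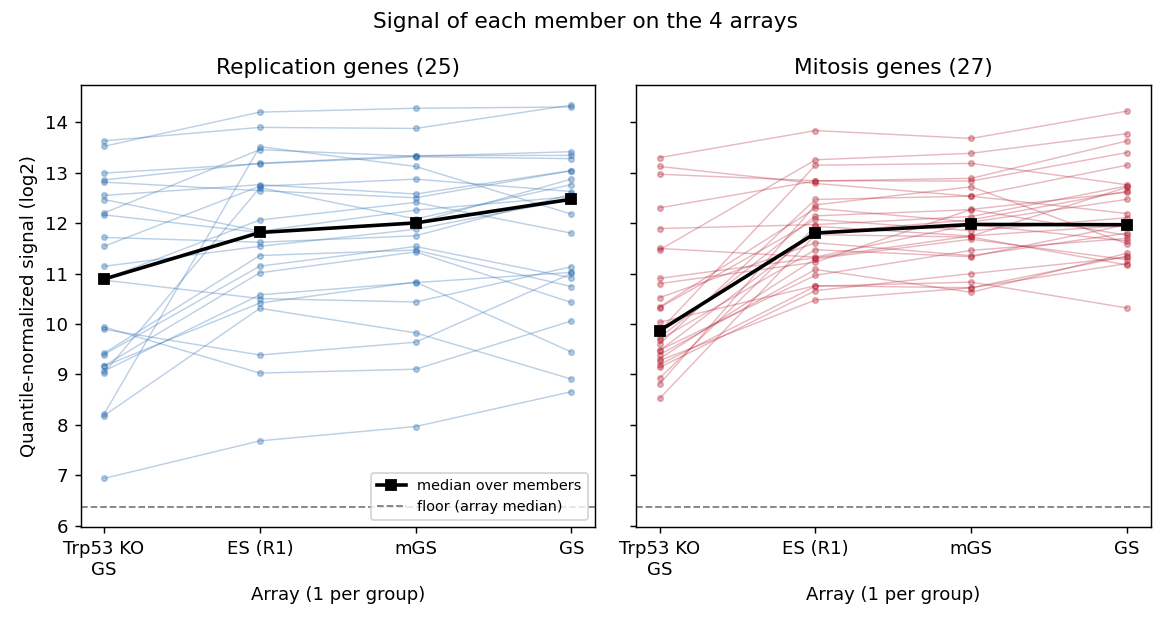
Quantile-normalized log2 signal (y axis) of each of 25 replication genes (left) and 27 mitosis genes (right) on the 4 arrays (x axis, 1 array per group). Thin lines join the values of 1 gene, black squares give the median over genes and the dashed line is the floor; the mitosis median is 935 on the knockout array and between 3580 and 4025 on the others.

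Every one of the 52 genes had a lower signal on the knockout array than on the GS array, and 33 of them by at least 2-fold. Among 11623 genes compared, 45.1% were lower by any amount, 6.93% at least 2-fold lower and 9.77% at least 2-fold higher. Of the mitosis genes, 22 of 27 passed 2-fold and 13 passed 4-fold, and their median log2 difference was -1.96. Of the replication genes, 11 of 25 passed 2-fold and 2 passed 4-fold, and their median was -0.86. The share of all genes at least 4-fold lower was 1.05%, and the median over all genes was 0.07. Genes with a mean signal at or over the lower quartile of the listed genes, 1716, had a similar background, 6.83% at least 2-fold lower among 2651. Hybridisation controls were also lower on the knockout array, as given above. Of 13 fibroblast markers compared, 6 were higher by 2-fold or more on the knockout array and none lower by as much, with a median log2 difference of 0.94. The part of either in these differences was not tested. The knockout label names ICR and the GS label gives no strain. With 1 array per group, strain and culture cannot be told apart from genotype.

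**Figure D2:**
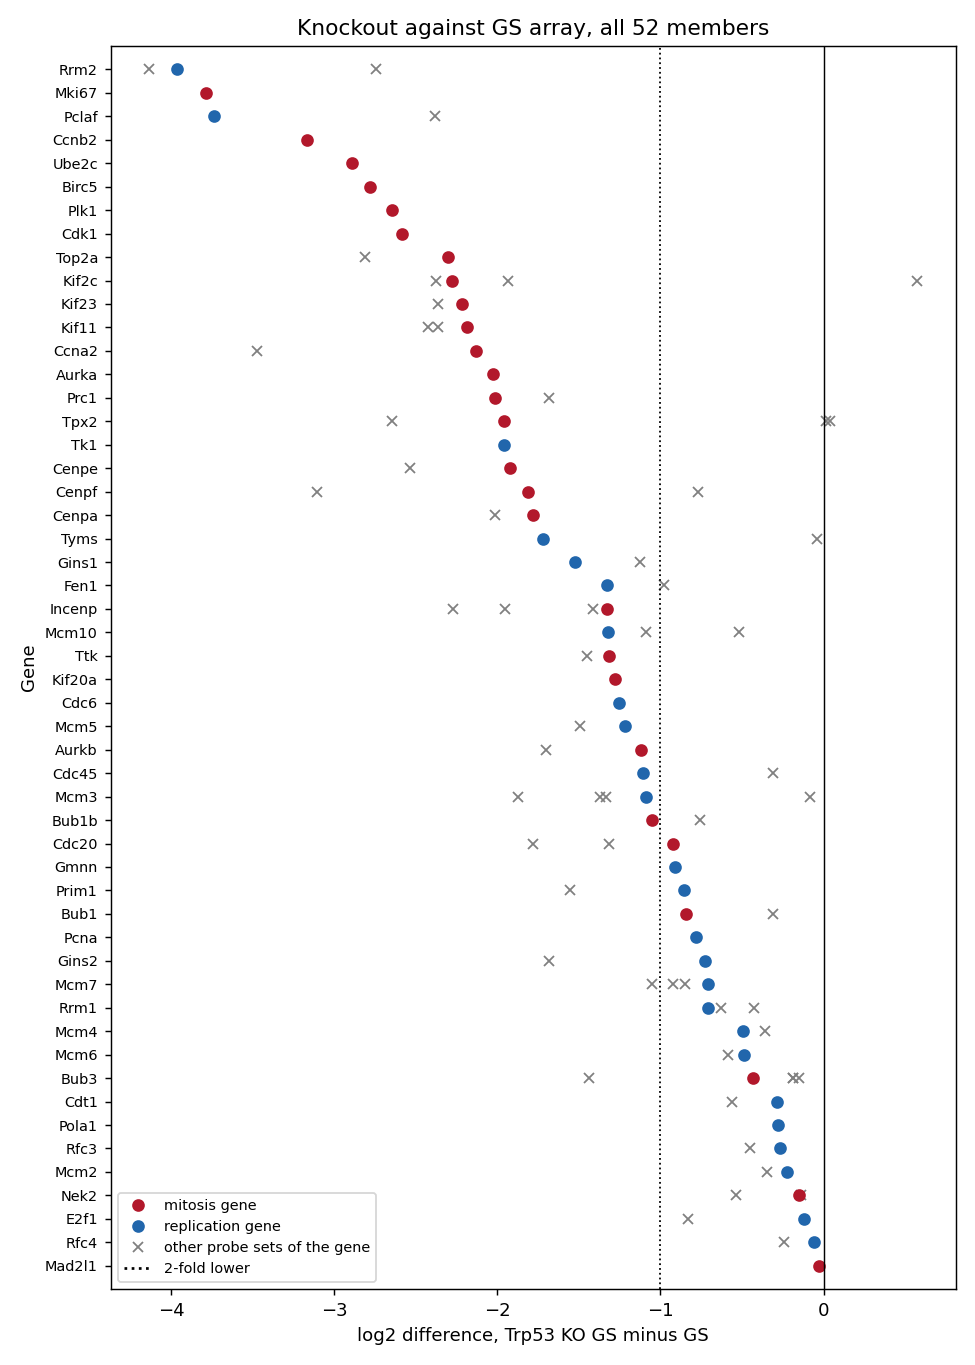
log2 difference between the knockout and GS arrays (x axis) for the 52 genes (y axis), ordered with the most negative at the top. Filled circles are the chosen probe set of a mitosis (red) or replication (blue) gene, grey crosses the gene's other probe sets above the floor on at least 1 of these arrays, and the dotted line marks 2-fold lower; the chosen values run from -3.97 for Rrm2 to -0.03 for Mad2l1.

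The promoters of several of these genes are shown because the mitosis and replication genes differ in the motifs they hold. RefSeq promoter windows (build GRCm38.p6, 250 bases before the annotated start to 50 after) were matched by symbol to 43 of the 52 genes, 22 mitosis and 21 replication genes. They were searched on both strands for the CHR element TTTGAA, for the E2F sites TTCCCGC or TTGGCGC, and for the CCAAT box CCAAT, which can overlap a TTGGCGC match read on the other strand. Printed below are the 250 bases before the start for the 3 mitosis genes with the most negative difference between the knockout and GS arrays and for the mitosis gene with the smallest difference, among genes with 1 window. Capitals mark the motif matches on either strand.
Mki67: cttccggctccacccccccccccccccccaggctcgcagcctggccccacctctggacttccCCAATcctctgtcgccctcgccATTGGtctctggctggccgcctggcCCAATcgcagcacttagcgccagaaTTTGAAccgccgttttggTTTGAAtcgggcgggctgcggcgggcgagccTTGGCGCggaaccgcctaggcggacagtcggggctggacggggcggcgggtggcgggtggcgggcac
Ccnb2: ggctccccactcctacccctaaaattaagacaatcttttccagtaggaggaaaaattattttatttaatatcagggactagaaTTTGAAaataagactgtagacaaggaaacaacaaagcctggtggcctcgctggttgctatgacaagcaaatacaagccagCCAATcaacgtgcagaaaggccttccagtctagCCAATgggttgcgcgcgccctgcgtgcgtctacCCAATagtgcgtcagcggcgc
Ube2c: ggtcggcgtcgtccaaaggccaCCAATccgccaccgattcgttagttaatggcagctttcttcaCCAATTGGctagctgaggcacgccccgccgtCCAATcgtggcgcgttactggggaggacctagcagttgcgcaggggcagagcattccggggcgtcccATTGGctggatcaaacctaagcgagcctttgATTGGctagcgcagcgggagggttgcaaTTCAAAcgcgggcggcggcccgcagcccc
Mad2l1: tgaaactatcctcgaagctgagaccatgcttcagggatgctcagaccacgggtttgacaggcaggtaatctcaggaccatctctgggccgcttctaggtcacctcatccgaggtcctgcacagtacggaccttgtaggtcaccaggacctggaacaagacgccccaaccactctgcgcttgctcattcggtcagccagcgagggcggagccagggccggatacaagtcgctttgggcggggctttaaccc
These stretches lie at chr7:135716380-135716629 on the minus strand, chr9:70421555-70421804 on the minus strand, chr2:164769679-164769928 on the plus strand and chr6:66534971-66535220 on the plus strand. Mki67 holds CHR matches that begin 116 and 98 bases before the start, Ccnb2 one at 167 bases and Ube2c one at 29 bases. The Mad2l1 stretch holds no match to any of the motifs.

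For the replication genes, the gene with the most negative difference is shown with the 2 lowest genes among those with an E2F match wholly before the start and 1 window.
Rrm2: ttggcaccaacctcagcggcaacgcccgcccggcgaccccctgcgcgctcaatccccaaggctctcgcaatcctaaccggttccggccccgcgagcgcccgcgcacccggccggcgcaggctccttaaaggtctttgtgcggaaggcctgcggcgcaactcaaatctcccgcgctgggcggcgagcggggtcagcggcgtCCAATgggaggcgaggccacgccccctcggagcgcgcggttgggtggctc
Cdc6: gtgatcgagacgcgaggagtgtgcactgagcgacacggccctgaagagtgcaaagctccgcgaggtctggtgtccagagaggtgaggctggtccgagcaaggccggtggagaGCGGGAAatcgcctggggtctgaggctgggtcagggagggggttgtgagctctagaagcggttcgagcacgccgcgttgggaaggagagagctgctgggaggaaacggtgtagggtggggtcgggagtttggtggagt
Mcm5: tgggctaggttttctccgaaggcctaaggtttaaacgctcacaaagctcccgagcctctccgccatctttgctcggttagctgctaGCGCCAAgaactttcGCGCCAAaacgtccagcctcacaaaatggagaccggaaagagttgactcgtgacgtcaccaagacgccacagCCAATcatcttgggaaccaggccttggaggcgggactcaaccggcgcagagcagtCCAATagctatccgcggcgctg
These lie at chr12:24708004-24708253, chr11:98907901-98908150 and chr8:75109259-75109508, all on the plus strand. Rrm2 holds a CCAAT box 50 bases before the start and neither other motif. Cdc6 holds an E2F match on the other strand at 138 bases, and Mcm5 holds such matches at 164 and 149 bases with CCAAT boxes at 77 and 22 bases.

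The CHR match was found in 17 of 22 mitosis genes, 77.3%, and in 3 of 21 replication genes, 14.3%, against 20.2% of 27025 genes in the table. The E2F match had the opposite distribution, with 2 of 22 mitosis genes, 9.09%, and 12 of 21 replication genes, 57.1%, against 7.79% of all genes. A CCAAT box was found in 19 of 22 mitosis genes and 14 of 21 replication genes, 86.4% and 66.7%, against 41.1% of all genes. All genes of the table include ones that do not code for protein. Among its 17491 protein-coding genes the shares were 18.5% for CHR, 9.94% for E2F and 42.3% for the CCAAT box. Of the 17 mitosis genes with a CHR match, 15 passed 2-fold lower on the knockout against the GS array, and their median log2 difference was -2.18. Of the 5 without one (Birc5, Bub1, Cenpe, Mad2l1 and Nek2), 2 did, and the median was -0.84. The mitosis genes with no window (Aurkb, Ccna2, Incenp, Kif20a and Tpx2) belong to neither group. All of them passed 2-fold lower, with log2 differences from -2.13 to -1.12. Whether a match goes with the size of the difference was not tested. Among replication genes, the 12 with an E2F match had a median of -0.71 and the 9 without one a median of -1.32. A match is a run of letters and does not show that a factor bound there. The lack of a match to these exact letters does not show that a site is absent.

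**Figure D3:**
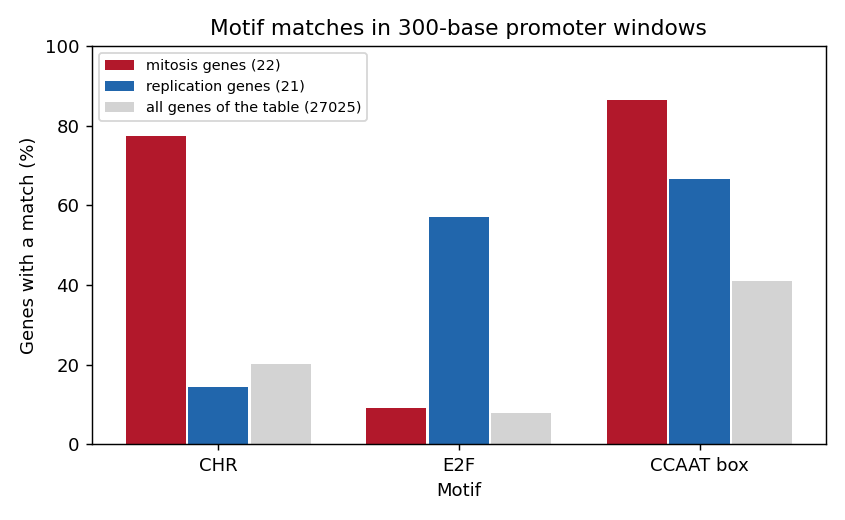
Share of genes (y axis, percent) with at least 1 match to each motif (x axis) in the 300-base promoter window, for 22 mitosis genes (red), 21 replication genes (blue) and all 27025 genes of the table (grey). CHR matches reach 77.3% in the mitosis genes, and E2F matches 57.1% in the replication genes.

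Origin licensing genes were among those that differed least. Cdc6, the ATPase that loads the Mcm helicase, read 576 on the knockout array, 2072 on the ES array, 2761 on the mGS array and 1377 on the GS array. Mcm5, a subunit of that helicase, read 4712 on the knockout array, 11259 on the ES array, 10279 on the mGS array and 10949 on the GS array. Both were lowest on the knockout array, 2.39-fold and 2.32-fold under GS, while Cdc6 was highest on the mGS array. Of the 9 licensing genes, Mcm3 was the third at least 2-fold lower on the knockout array, 2.12-fold. Mcm2, another helicase subunit, read 7205 on the knockout array, 6408 on the ES array, 5812 on the mGS array and 8427 on the GS array, so its knockout value lay above those of ES and mGS. Mcm4, Mcm6, Mcm7, the loading factor Cdt1 and its inhibitor Gmnn had log2 differences between -0.91 and -0.29 for knockout against GS. By their chosen probe sets, the subunits of the 1 helicase ring spanned log2 differences from -1.22 to -0.23. The probe sets of Mcm3 alone ran from -1.87 to -1.09, apart from a dim one at -0.08. Those compared for Mcm5 gave -1.49 and -1.22, for Mcm2 -0.35 and -0.23, for Mcm4 -0.49 and -0.36, and for Mcm6 -0.58 and -0.49. Those of Mcm7 ran from -1.05 to -0.71. How much of the span lies between probe sets was not tested.

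Origin firing genes followed different patterns over the 4 arrays. Mcm10, which helps start the helicase, read 686 on the knockout array, 2627 on the ES array, 2831 on the mGS array and 1712 on the GS array, and Gins1, a subunit of the GINS complex, read 673 on the knockout array, 2269 on the ES array, 2974 on the mGS array and 1934 on the GS array. Both were 2.5-fold and 2.87-fold lower on the knockout array than on the GS array, and higher on the ES and mGS arrays than on either GS type. Cdc45, the helicase cofactor, read 952 on the knockout array, 669 on the ES array, 798 on the mGS array and 2054 on the GS array. Its high value was on the GS array alone, and the knockout value lay above ES and mGS. Gins2, a second GINS subunit, read 291 on the knockout array, 1271 on the ES array, 907 on the mGS array and 480.3 on the GS array, with the 2 cultures in ES medium above the 2 in GS medium.

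Genes of the replication fork were mostly within 2-fold between the knockout and GS arrays, with Pclaf as the exception in size. Pclaf, a small protein that binds the clamp Pcna, read 523 on the knockout array, 6680.2 on the ES array, 4344 on the mGS array and 6971 on the GS array. The knockout value was 13.3-fold under GS and 8.31-fold under mGS, the nearest of the others. Fen1, the flap nuclease that trims Okazaki fragments, read 2264 on the knockout array, 2981 on the ES array, 3766 on the mGS array and 5695 on the GS array, 2.52-fold lower on the knockout than on the GS array. Pcna itself read 11791 on the knockout array, 18864 on the ES array, 19893 on the mGS array and 20242 on the GS array, 1.72-fold lower on the knockout than on the GS array. Pola1, the catalytic subunit of the polymerase that primes DNA synthesis, read 574 on the knockout array, 1366 on the ES array, 1824 on the mGS array and 696 on the GS array, so the 2 cultures in GS medium were low and the 2 in ES medium high. Rfc4, a subunit of the clamp loader, read 5672 on the knockout array, 3669 on the ES array, 4902 on the mGS array and 5903 on the GS array, with knockout and GS close to each other. The primase gene Prim1 and the clamp loader gene Rfc3 had log2 differences of -0.86 and -0.27. Another Prim1 probe set gave -1.55.

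Deoxynucleotide supply held the largest difference of all 52 genes. Rrm2, the small subunit of ribonucleotide reductase, which is made in S phase, read 297 on the knockout array, 11729 on the ES array, 8935 on the mGS array and 4639.5 on the GS array. The knockout value was 15.6-fold under GS and 39.5-fold under ES. Its partner Rrm1, the large subunit and a more stable protein, read 4594 on the knockout array, 3605 on the ES array, 4112 on the mGS array and 7514 on the GS array, only 1.64-fold lower on the knockout than on the GS array. Its knockout value lay above those of ES and mGS, where that of Rrm2 lay far below them. Tk1, the thymidine kinase of S phase, read 536 on the knockout array, 1530.1 on the ES array, 1810.5 on the mGS array and 2082 on the GS array, 3.88-fold lower on the knockout than on the GS array. The thymidylate synthase gene Tyms was 3.3-fold lower, with signals of 123 (knockout), 205 (ES), 250.2 (mGS) and 404 (GS). E2f1, a transcription factor of the G1/S genes, read 983 on the knockout array, 522 on the ES array, 550.2 on the mGS array and 1068 on the GS array. By this chosen probe set E2f1 was close between the knockout and GS arrays. A second probe set read 484 (knockout), 317 (ES), 263 (mGS) and 863 (GS), 1.78-fold lower on the knockout than on the GS array. In both probe sets E2f1 was lower on the 2 arrays of the ES medium than on the other 2.

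Among the mitosis genes, those that drive entry into mitosis were far lower on the knockout array, with Nek2 as the exception. Ccnb2, a B-type cyclin, read 709.8 on the knockout array, 3579.8 on the ES array, 4292 on the mGS array and 6365 on the GS array. Cdk1, its kinase partner, read 779 on the knockout array, 5679 on the ES array, 5941 on the mGS array and 4677 on the GS array. Plk1, the Polo-like kinase, read 368 on the knockout array, 3501 on the ES array, 3384 on the mGS array and 2307 on the GS array. In all 3 the knockout value stood alone at the bottom and the other arrays lay within 2-fold of each other. The folds under GS were 8.97-fold, 6-fold and 6.27-fold, and those of Ccna2, the cyclin of S and G2 phases, and the centrosomal kinase Aurka were 4.39-fold and 4.08-fold. Nek2, a kinase of centrosome separation, read 2894 on the knockout array, 2569 on the ES array, 4025 on the mGS array and 3206 on the GS array, so the knockout value lay between those of ES and GS.

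Genes of chromosome structure and the centromere were all at least 2-fold lower on the knockout than on the GS array. Mki67, the proliferation marker that coats mitotic chromosomes, read 487 on the knockout array, 3925 on the ES array, 3435 on the mGS array and 6715 on the GS array. Top2a, the topoisomerase that untangles sister DNA, read 2841 on the knockout array, 9792 on the ES array, 10718 on the mGS array and 14027 on the GS array. Both were highest on the GS array and lowest on the knockout array, 13.8-fold and 4.94-fold apart. Cenpe, a kinetochore motor, read 619.96 on the knockout array, 1425 on the ES array, 1687 on the mGS array and 2352 on the GS array. Cenpf, a large kinetochore protein, read 1785 on the knockout array, 2398 on the ES array, 4953 on the mGS array and 6272 on the GS array. It was the 1 gene of the 52 that differed by 2-fold between ES and mGS, and its knockout value was within 2-fold of ES. Cenpa, the histone H3 variant of centromeres, was 3.44-fold lower on the knockout than on the GS array.

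The chromosomal passenger complex corrects faulty attachments of chromosomes to the spindle. Its subunit Birc5 (survivin) read 449 on the knockout array, 5267 on the ES array, 6763 on the mGS array and 3084 on the GS array, which put the ES and mGS arrays above GS and the knockout far below it, 6.87-fold. Incenp, the scaffold of the complex, read 5063 on the knockout array, 7319.9 on the ES array, 7589.8 on the mGS array and 12706 on the GS array, 2.51-fold lower on the knockout than on the GS array. The kinase subunit Aurkb was 2.18-fold lower, with signals of 587 (knockout), 1724 (ES), 1822 (mGS) and 1277 (GS). All 3 subunits were lowest on the knockout array.

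Spindle checkpoint genes divided. Ttk, the kinase Mps1 that starts the checkpoint signal, read 1049 on the knockout array, 1734 on the ES array, 1686 on the mGS array and 2609 on the GS array, and Bub1b, which holds back the anaphase-promoting complex, read 1919 on the knockout array, 2547 on the ES array, 3440.2 on the mGS array and 3975 on the GS array. They were 2.49-fold and 2.07-fold lower on the knockout than on the GS array. Mad2l1, the checkpoint protein that binds Cdc20, read 8935 on the knockout array, 7076 on the ES array, 5936 on the mGS array and 9100.04 on the GS array, and Bub3, an adaptor of the Bub kinases, read 8032 on the knockout array, 7346 on the ES array, 7311 on the mGS array and 10822 on the GS array. For these 2 genes the knockout signal of the chosen probe set lay above those of ES and mGS. For Bub3 it did so by only 1.09-fold and 1.10-fold. The other Bub3 probe sets, all dimmer, read lower on the knockout than on either array, by log2 differences from -1.66 to -0.24. Bub1, with a log2 difference of -0.84, lay between the pairs.

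Anaphase is started by a ubiquitin ligase, the anaphase-promoting complex. Its ubiquitin-conjugating enzyme gene Ube2c read 935 on the knockout array, 9092 on the ES array, 9321 on the mGS array and 6948 on the GS array, 7.43-fold lower on the knockout than on the GS array. Its activator gene Cdc20 read 10096 on the knockout array, 14639.6 on the ES array, 13136 on the mGS array and 19127 on the GS array, 1.89-fold lower on the knockout than on the GS array. Both genes were lowest on the knockout array. The other Cdc20 probe sets were 2.49-fold and 3.43-fold lower on the knockout than on the GS array. Of 13 further subunit genes of the complex, Anapc13 was the 1 past 2-fold lower, none passed 2-fold higher, and the median log2 difference was 0.02.

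All 6 genes of spindle motors and the midzone were at least 2-fold lower on the knockout than on the GS array. Kif2c, a kinesin that shortens microtubules, read 827 on the knockout array, 2845 on the ES array, 2583 on the mGS array and 4012 on the GS array. Kif23, a midzone kinesin of cytokinesis, read 716 on the knockout array, 2002 on the ES array, 2821 on the mGS array and 3324 on the GS array. Kif11, the motor that pushes spindle poles apart, read 565 on the knockout array, 1621 on the ES array, 2048 on the mGS array and 2565 on the GS array. In each the knockout array was lowest and the GS array highest. Their folds, 4.85-fold, 4.64-fold and 4.54-fold, were close to one another, those of the microtubule bundler Prc1 and the spindle assembly factor Tpx2 were 4.03-fold and 3.89-fold, and Kif20a was 2.43-fold lower.

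**Figure D4:**
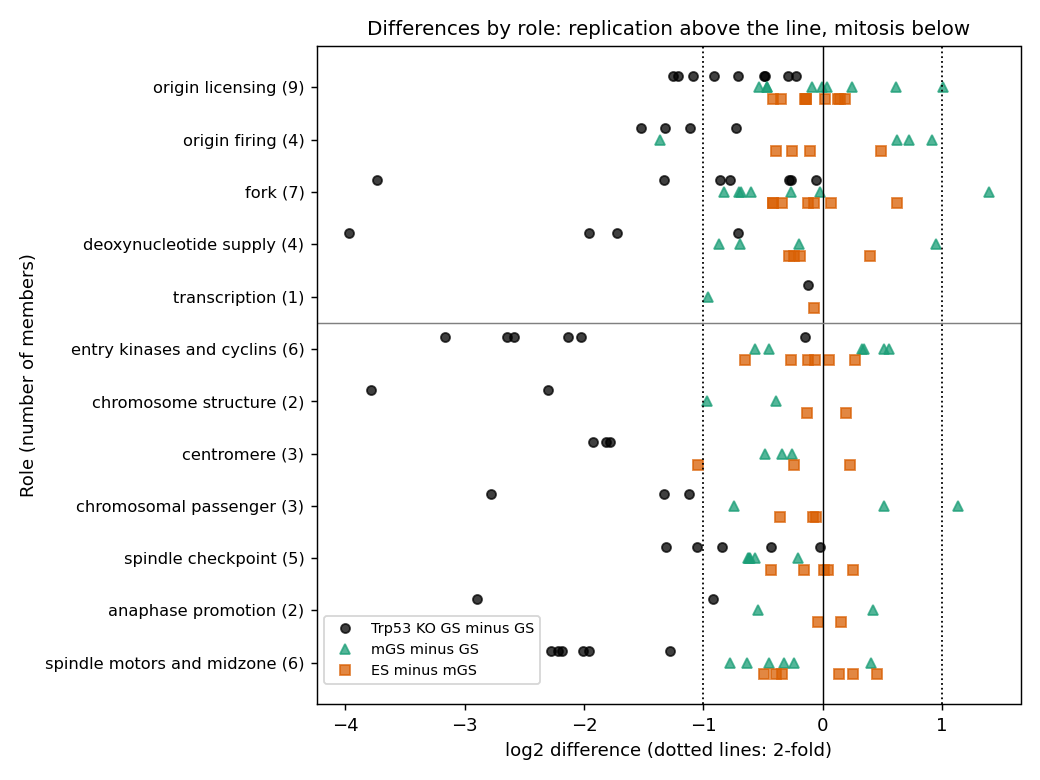
log2 differences (x axis) of the 52 genes by role (y axis, number of genes in brackets) for the knockout against GS (black circles), mGS against GS (green triangles) and ES against mGS (orange squares). Dotted lines mark 2-fold; all 6 spindle motor and midzone genes lie beyond 2-fold lower in the knockout comparison and inside it in the others.

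The other probe sets of these genes gave the same picture for the knockout. Of 74 such probe sets, 59 were above the floor on the knockout or GS array, and 56 of these lay below GS in the knockout, 32 of them by 2-fold or more. Their median log2 difference was -1.12. The 3 others belonged to Kif2c and Tpx2. The Kif2c probe set read 123 on the knockout and 57.4 on the GS array, and the 2 Tpx2 probe sets lay at or under 154 on both arrays. None differed from its gene's chosen probe set by sign and 2-fold together. The gap between a gene's probe sets had a standard deviation of 0.81 on the log2 scale. For Tyms another probe set read 12 on the knockout and 85.1 on the GS array. The floor therefore limited its log2 difference to -0.04, against -1.72 in the chosen one. A Cdc45 probe set at 79 and 102 was also under the floor on the knockout array and gave -0.31, against -1.11. Both differences are at least the size given. A dim Mcm3 probe set, 88.3 and 93.4, gave -0.08 against -1.09, and other Mcm3 probe sets ran from -1.87 to -1.33. For Ccna2 the second probe set had a log2 difference of -3.48 and the chosen one -2.13, and for Gins2 the values were -1.68 and -0.72.

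The knockout array was also set against the 2 arrays of the ES medium. Against ES, 29 of 52 genes were at least 2-fold lower, 18 mitosis and 11 replication genes, where 18.8% of 12325 genes were. Against mGS the count was 30, with 18 mitosis and 12 replication genes, where 17.3% of 12202 genes were. No listed gene was 2-fold higher on the knockout array in either, where 21.5% of all genes compared were against ES and 21.7% against mGS. These comparisons share the knockout array with the comparison to GS and differ in cell type and medium as well as genotype. The ES comparison lies between arrays with like poly-A controls, and the GS and mGS comparisons do not. Fibroblast markers were lower on the knockout than on the ES array, 16 of 17 by 2-fold or more, and their part was not tested.

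Between mGS and GS cells few of these genes differed by 2-fold. On the mGS array 1 of the 52 was lower by 2-fold or more and 3 were higher by as much, where 16.5% and 15.3% of 11981 genes were. The lower gene was Cdc45, 2.57-fold, and the higher ones were Pola1, 2.62-fold, Birc5, 2.19-fold, and Cdc6, 2.01-fold. The medians were -0.20 for replication and -0.39 for mitosis genes, against -0.04 over all genes. Without the _x_at and _s_at probe sets, which can read several transcripts, 4 replication genes were higher by 2-fold or more in place of 2, and with a pseudocount in place of the floor 1 was. Of the 39 replication genes of a further list, 11 passed 2-fold lower and 3 passed 2-fold higher in mGS, and of 47 further mitosis genes 5 passed it each way. Rrm2 and Gins2, just inside 2-fold, had log2 differences of 0.95 and 0.92, and Mki67 and E2f1 ones of -0.97 and -0.96. Of 59 other probe sets compared, 1 passed 2-fold lower, of E2f1 at -1.71. The 4 that passed 2-fold higher were of Rrm2 (1.60 and 1.08), Gins2 (1.03) and Cenpf (1.33). Between ES and GS, which shares the GS array, 4 genes (Cdc45, Cenpf, Rrm1 and E2f1) lay 2-fold or more lower and 2 (Rrm2 and Gins2) higher, where 17.2% and 17.4% of 12107 genes were. Cell type and medium changed together in these comparisons.

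Between ES and mGS cells, grown in the same kind of medium, the listed genes lay closer still. Cenpf, 2.07-fold lower in ES, was the 1 gene of the 52 past 2-fold in that direction, and none passed it in the other, where 5.13% and 6.9% of 11816 genes were. When probe sets were averaged per gene, 2 mitosis genes passed it in the other direction. The medians were -0.14 for replication and -0.07 for mitosis genes. Pclaf had the largest positive log2 difference, 0.62, and Nek2 one of -0.65. Fibroblast markers differed by a median of 2.98 in the same comparison, and 15 of 17 of them were higher in ES by 2-fold or more, and the part of such cells was not tested.

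**Figure D5:**
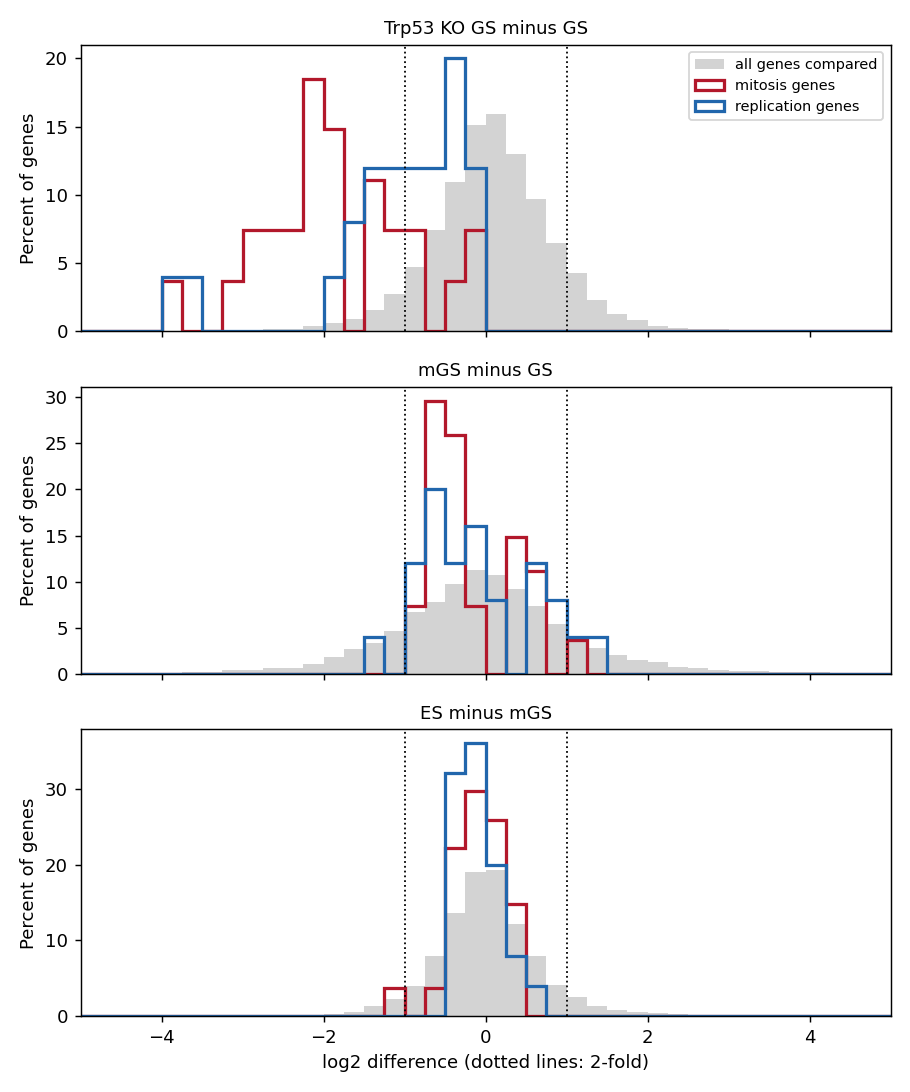
Distribution of log2 differences (x axis, cut at 5 in each direction) as a percent of genes (y axis) for all genes compared (grey), 27 mitosis genes (red) and 25 replication genes (blue), for the knockout against GS (top), mGS against GS (middle) and ES against mGS (bottom). Dotted lines mark 2-fold; in the top panel every listed gene lies below 0, with medians of -1.96 for mitosis and -0.86 for replication.

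Further genes of the same processes were read from lists drawn up beside the members. Of 47 other mitosis genes compared, 28 passed 2-fold lower on the knockout against the GS array and 1 passed 2-fold higher, and their median log2 difference was -1.20. Nusap1, a spindle-binding protein gene, was 6.83-fold lower, with signals of 492 (knockout), 2855 (ES), 3092 (mGS) and 3357 (GS). The kinetochore gene Nuf2 and Fbxo5, an inhibitor of the anaphase-promoting complex, were 5.88-fold and 4.57-fold lower, and Cdca2, a chromosome-bound phosphatase subunit, was 4.52-fold lower. The higher gene was Pttg1, securin, the inhibitor of separase, 2.27-fold, with signals of 10704 (knockout), 6876 (ES), 8228 (mGS) and 4719 (GS). Of 39 other replication genes, 10 passed 2-fold lower and none passed 2-fold higher, and their median was -0.61. They were led by Uhrf1, which brings DNA methylation to newly copied DNA, 5.24-fold, and by Ticrr, an origin firing factor, which was under the floor on the knockout array and therefore at least 5.13-fold lower. Atad2 and Dtl were 3.02-fold and 2.69-fold lower. Of 10 housekeeping genes none differed by 2-fold, and their median was 0.05.

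Genes of transcription factors that act on these promoters differed less. Of 18 such genes, 15 were lower by any amount on the knockout than on the GS array, 4 of them by 2-fold or more, and 1 was higher by 2-fold or more, and the median was -0.43. E2f8, a repressor of the E2F family, was at least 5.91-fold lower, E2f3, an activator, 2.34-fold lower and Foxm1, the forkhead factor of mitotic genes, 2.09-fold lower. E2f7, a relative of E2f8, was 2.04-fold lower. E2f6, a repressor of the family that lacks the domain that binds pocket proteins, was 3.11-fold higher, with signals of 5016 (knockout), 832 (ES), 967 (mGS) and 1615 (GS). Mybl2, which encodes B-Myb, read 575 on the knockout array, 6124 on the ES array, 7746 on the mGS array and 643 on the GS array. It was low in both GS types, which lay close to each other, and 12-fold higher on the mGS than on the GS array. Foxm1 read 323 on the knockout array, 328 on the ES array, 268 on the mGS array and 677 on the GS array, with the GS array above the other 3.

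The 52 genes lay on 17 chromosomes, with 9 of them on chromosome 2 and fewer on each of the others.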

How the data were processed

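Each array's deposited file values are 1 linear intensity for every probe set. The labels' protocols give Trizol extraction of total RNA and biotinylated cRNA made by the standard Affymetrix procedure, and no source used here names the summarising software. With 2% trimmed at both ends, all 4 arrays had a mean of 500.003, the mark of scaling to a common target.

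Of 45101 probe sets, 64 controls were set aside. The log2 values of the other 45037 were quantile normalized over the 4 arrays, which hides a change in total RNA. The platform's annotation gave 34945 of them 1 symbol and 932 several, which were left out, and 9160 were not listed. Symbols were updated by gene identifier through the GRCm38.p6 gene table. A gene took its probe set of highest mean. Values under the array median, 6.37 on the log2 scale, were raised to it, and genes with both values below it were not compared. Differences were counted at 2-fold. The named genes were those with the 12 largest and 5 smallest differences between knockout and GS, those at least 2-fold apart in mGS against GS or ES against mGS, the leading 1 or 2 of each role and up to 4 of each further list, and others were added for context after their values were seen. The lists, and the division into roles, were chosen with earlier results of these data known.

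Tried as alternatives were no quantile step, median centring in its place, averaging of probe sets per gene, removal of the _x_at and _s_at probe sets, inclusion of multi-symbol probe sets, a pseudocount of 32 in place of the floor, no floor, and a floor at percentile 30 or 60. The steps were tested on simulated data. The work used matplotlib 3.10.9, scipy 1.17.1, pandas 2.3.3 and numpy 2.4.6 under Python 3.11.15.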

Additional observations from a re-analysis of the deposited data

How the results depend on the processing

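The median difference and the count at least 2-fold lower were recomputed for both gene groups in 3 comparisons under 9 alternatives. For knockout against GS, the mitosis median ranged from -2.06 to -1.69 and its count from 21 to 24 of 27, and the replication median from -1.14 to -0.85 and its count from 11 to 15 of 25. Over all 108 recomputed values, 101 stayed within the 95% interval of the median over members or within 1.5 times the count, 6 moved further and 1 changed sign. That interval comes from the ranks of the genes on 1 pair of arrays. It treats the genes as independent and does not describe a spread between cultures. The 101 include values that could not move. No listed gene was under the floor on any array, so shifting or dropping the floor returned the main values exactly. Keeping multi-symbol probe sets also left every value as it was. The count of 101 therefore overstates how far these results were tested. The count of replication genes lower in mGS than in GS was 2 with the values as deposited, with centring on medians and with the mean of probe sets, against 1. With that mean it was 2 for mitosis genes in mGS against GS and 2 for replication genes in ES against mGS, both against 0, and the mitosis median of ES against mGS was 0.049 in place of -0.07. The replication median of ES against mGS was -0.33 with centring. Counts at least 2-fold higher moved as well. For replication genes in mGS against GS they were 4 without the _x_at and _s_at probe sets, 3 with centring and 1 with the pseudocount, against 2. For mitosis genes in ES against mGS the count was 2 with the mean of probe sets, against 0. The cause was not tested. In knockout against GS, centring moved the all-gene median by -0.16, and 9.22% of genes were then 2-fold lower and 7.21% higher, against 6.93% and 9.77%. In ES against mGS it moved by -0.11. Without the floor 14.3% and 17.4% of all genes were 2-fold lower and higher in knockout against GS. No paired analysis was possible because each group has 1 array. Detection calls were not used here, so the floor alone limits dim signals.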

Other observations

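Among histone variants and histones outside the main lists, H2az1, which encodes the H2A.Z variant, had signals of 1832 (knockout), 21848 (ES), 19179 (mGS) and 5879.7 (GS). It was 3.21-fold lower on the knockout than on the GS array and 3.26-fold higher on the mGS than on the GS array. The related H2az2 had signals of 17829 (knockout), 4541 (ES), 9285 (mGS) and 12291 (GS), 1.45-fold higher on the knockout than on the GS array and 2.04-fold lower on the ES than on the mGS array. Of 10 genes in that list 6 were measured.

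The following genes were chosen after their values were seen. Among condensin genes, which compact mitotic chromosomes, Smc4 and Ncapg were highest on the GS array. Smc4 had signals of 3712 (knockout), 7976 (ES), 6379 (mGS) and 15184 (GS) and Ncapg ones of 1769 (knockout), 1741 (ES), 1895 (mGS) and 5986 (GS). Against GS, Ncapg was 3.38-fold lower on the knockout array and 3.16-fold lower on the mGS array, so its knockout value lay beside those of ES and mGS. Slbp, whose protein binds the stem-loop of histone mRNAs, was 2.82-fold lower on the mGS than on the GS array, and the polymerase gene Pole 3.02-fold lower.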
